A study of Rattus norvegicus with 18 samples.

Results

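The comparison described here sets 3 liver samples of rats given carbon tetrachloride (CCl4) against 3 liver samples of rats given N-nitrosodiethylamine (DEN), both after 84 days of dosing. It uses 6 of the 18 arrays of the series, chosen by their titles, and no control array enters the difference itself. All animals were male F344/NSlc rats, an inbred strain, bought at 5 weeks of age and kept on basal diet for 1 week before dosing. By daily gavage of 5 mL/kg, the CCl4 rats received 100 mg/kg in a corn oil vehicle, and the DEN rats 4 mg/kg in a saline vehicle. Compound, dose and vehicle differ together between the groups and cannot be told apart. By its title, the study looks for genes that are methylated and lowered by liver carcinogens without direct action on DNA. This contrast places such a compound, CCl4, against DEN, which does act on DNA. The other 12 arrays hold the same treatments at day 28 and controls of both days, 3 per group. Titles call these controls vehicle, and the protocol describes untreated rats on basal diet.

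DEN is converted by cytochrome P450 enzymes of hepatocytes to an ethylating agent that forms DNA adducts and activates p53. Prolonged dosing of rats gives foci of altered hepatocytes, classically detected by glutathione S-transferase P. CCl4 is cleaved by Cyp2e1 to radicals that peroxidise lipids and kill hepatocytes around the central vein, and repeated injury activates stellate cells, which deposit collagen, and draws in macrophages. NRF2 is the transcription factor that electrophiles release from its inhibitor Keap1, and its targets make glutathione, NADPH and detoxifying enzymes.

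Levels below are log2 processed signal minus the 75th percentile of the array, so that 0 is the 75th percentile and 1 unit is a factor of 2. They are set side by side for a single gene only, because probes of different genes bind with different strength. Differences are CCl4 minus DEN on this log2 scale, ± the standard error (SE) of a limma fit, with n = 3 arrays per group. A gene was called when its Benjamini-Hochberg adjusted p was under 0.05. Of the genes tested, 10159 were well above background on all 3 arrays of both groups. Another 519 passed through the CCl4 arrays alone and 116 through the DEN arrays alone, and those genes had to be brighter on that side. Replicates are numbered in the titles, and no label says whether they came from separate rats, so p-values measure the spread between these samples.

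Across the 6 arrays, the 75th percentile of the processed signal was 245 to 321, and 53.43% to 57.03% of 61537 probes were well above background. No probe was saturated. Pearson correlations across genes were 0.9888 to 0.9957 within a group and 0.9593 to 0.9646 between the groups (genes are not independent replicates). Hepatocyte products were abundant in both groups: albumin (Alb) lay at 9.33, 9.08 and 9.32 on the DEN arrays and at 9.12, 9.59 and 9.27 on the CCl4 arrays. All 3 DEN arrays and CCl4 replicate 1 shared a slide, whereas CCl4 replicates 2 and 3 lay on another slide scanned in another session. Counts on the shared slide alone, given below for the main gene lists, set CCl4 replicate 1 against the 3 DEN arrays and assume that this lone array varies like the other groups.

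CCl4 and DEN livers differed at 3751 of 10794 genes (34.8%), of which 2032 (18.8%) were higher with CCl4 and 1719 (15.9%) lower. At least a 2-fold difference was seen for 1089 called genes, 772 higher and 317 lower. The median difference over all genes was 0.001. All 3 CCl4 arrays lay above all 3 DEN arrays for 2761 genes (25.6%) and below them for 2564 (23.8%). On the shared slide, 1682 genes were called. With slide as a block, which also leaves the contrast to CCl4 replicate 1, 2014 were called. Scaling to the spike-in probes moved the median difference to -0.17 and the share of called genes that were higher with CCl4 from 54.2% to 34.2%, so directions hold relative to the 75th percentile.

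**Figure D1:**
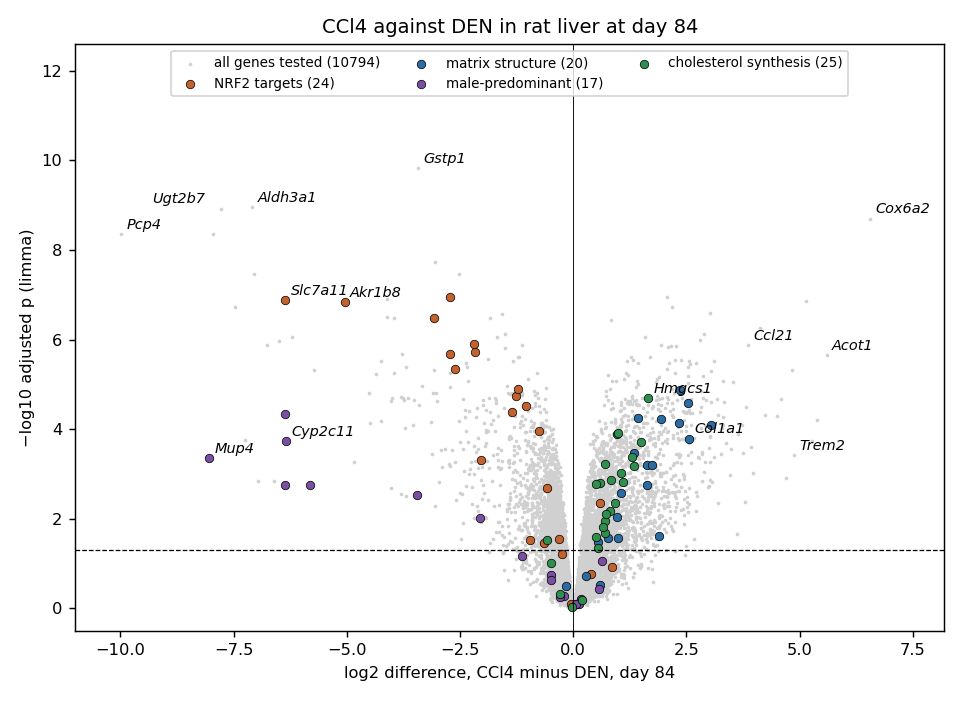
Each point is a gene, with the log2 difference CCl4 minus DEN at day 84 on the horizontal axis and the -log10 adjusted p of limma on the vertical axis. The dashed line marks an adjusted p of 0.05, grey points are all 10794 genes tested, and coloured points are the NRF2, matrix, male-predominant and cholesterol synthesis lists. NRF2 and male-predominant genes lie mostly left of 0, matrix and cholesterol synthesis genes mostly right of it.

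The largest excess with CCl4 was that of Cox6a2, the heart and muscle form of a cytochrome c oxidase subunit. Its level was -2.46, -2.28 and -3.19 on the DEN arrays, 3.71, 3.96 and 4.04 on the CCl4 arrays and -2.75, -2.47 and -2.37 on the controls. CCl4 arrays thus stood far above the others, and DEN arrays overlapped the controls. The difference was 6.55 ± 0.27 (93.5-fold higher with CCl4, adjusted p = 2.01e-09), and at day 28 it was 6.65. Acot1, a cytosolic acyl-CoA thioesterase, lay at -1.73, -0.98 and -2.29 with DEN and 3.76, 3.79 and 4.25 with CCl4, without overlap and with no control array well above background (5.6 ± 0.47, adjusted p = 2.22e-06). Sult2a2, a hydroxysteroid sulfotransferase with near-identical paralogs that its probe may also read, was 38.8-fold higher with CCl4. Lcn2, the iron-trapping lipocalin 2, was 15.8-fold higher. Of the 12 genes with the largest excess, 4 are secreted matrix or matrix-associated proteins. Srpx2 was 18.8-fold higher, the elastic fibre protein Mfap4 17.5-fold and asporin (Aspn) 14.2-fold. Cthrc1, a product of activated fibroblasts, was at least 16.6-fold higher, since no DEN array was well above background. The macrophage receptor Trem2, the chemokines Ccl21 and Ccl12 and Lypd1, a Ly6 family protein, complete the 12. For Lypd1, Aspn and Ccl12, 1 of 3 DEN arrays was well above background.

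Genes with the largest deficits with CCl4 were either low in controls and raised with DEN, or high in controls and depleted with CCl4. Pcp4, which encodes a small calmodulin-binding peptide, was of the former kind. It lay at 3.78, 4.47 and 3.2 with DEN, whereas the CCl4 arrays (-6.05, -6.17 and -6.31) and the controls (-5.82, -5.86 and -5.77) were not well above background. Pcp4 was at least 283-fold lower with CCl4 than with DEN (adjusted p = 4.4e-09). Ugt2b7, a glucuronosyltransferase, lay at 3.61, 3.75 and 3.51 with DEN, -4.37, -3.88 and -4.24 with CCl4 and -5.01, -5.86 and -5.16 in controls. It was 221-fold lower with CCl4 (adjusted p = 1.2e-09). Dnaaf1, an assembly factor of ciliary dynein, was at least 109-fold lower. Defb1, an antimicrobial beta-defensin, was 109-fold lower, with 1 CCl4 array well above background. Aldh3a1 and Slc7a11, described with their pathways, were of this kind too. The other kind were the urinary protein genes Mup4, Mup5, Mup4l1, Mup4l3 and Mup4l4 and the dehydrogenase gene Dhrs7l1. Dhrs7l1 lay at 3.74, 3.42 and 3.38 in controls, 2.74, 1.28 and 3.17 with DEN and -5.72, -5.14 and -3.71 with CCl4, with 1 CCl4 array well above background.

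**Figure D2:**
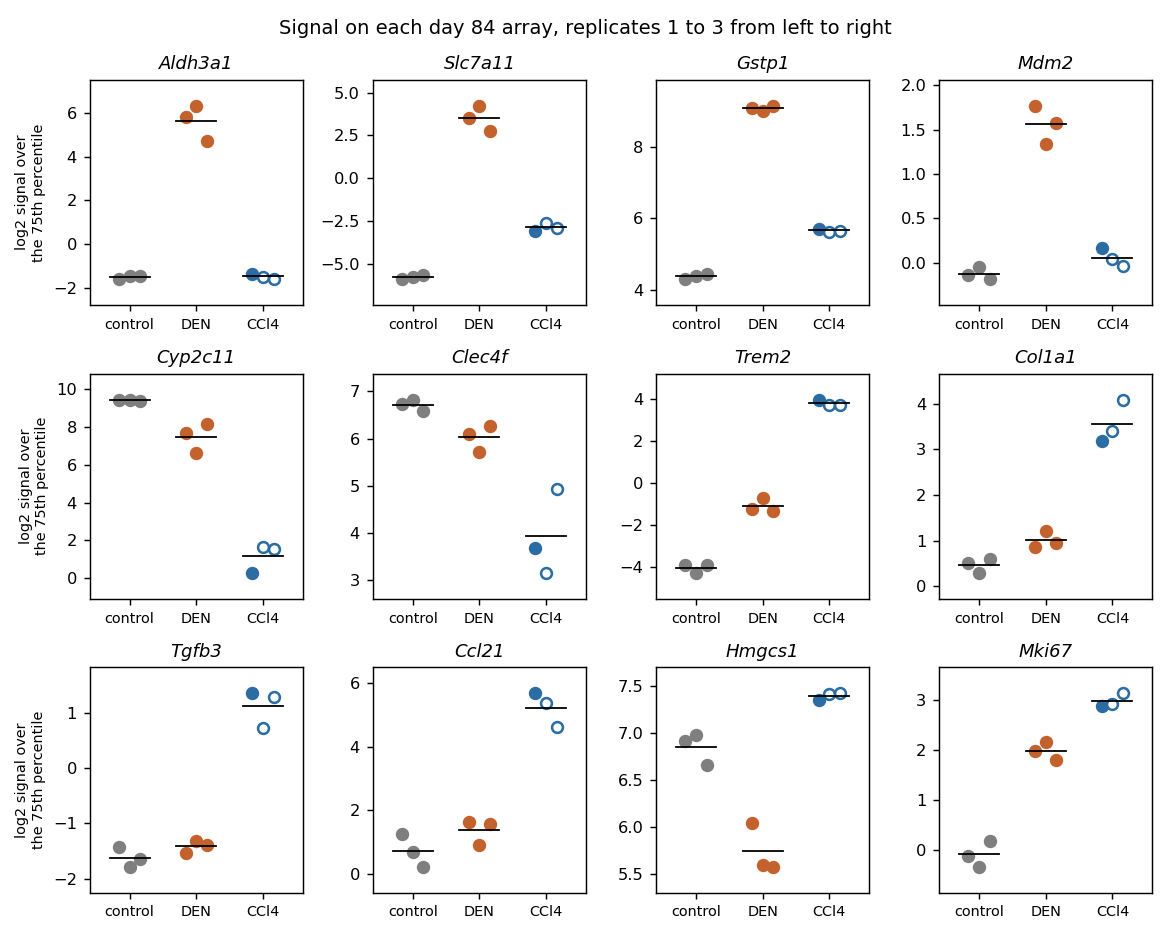
Each panel shows a gene on the 9 arrays of day 84, as log2 signal over the 75th percentile of the array, with a line at the mean of the 3 arrays of a group. Points run from replicate 1 to 3 from left to right, and hollow CCl4 points are the arrays on the other slide. In every panel the 3 CCl4 arrays lie wholly above or wholly below the 3 DEN arrays.

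The genes of the NRF2 list were lower with CCl4 than with DEN as a group: 18 of 24 tested members were called lower and 1 higher, with a median difference of -1.13. On the shared slide 16 were lower. Slc7a11, the cystine importer that feeds glutathione synthesis, lay at 3.5, 4.23 and 2.75 with DEN, -3.1, -2.6 and -2.89 with CCl4 and -5.88, -5.75 and -5.63 in controls. No control array was well above background. The groups did not overlap, and Slc7a11 was 81.9-fold lower with CCl4 (-6.36 ± 0.39, adjusted p = 1.32e-07). Gclc, the catalytic subunit of the enzyme that limits glutathione synthesis, lay at 6.85, 7.4 and 6.64 with DEN, 4.29, 4.36 and 4.11 with CCl4 and 4.04, 4.19 and 4.24 in controls. CCl4 arrays were near the controls and DEN arrays above both (-2.71 ± 0.16, adjusted p = 1.09e-07).

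Among detoxifying reductases, Akr1b8, an aldo-keto reductase, lay at 6.52, 7.18 and 5.76 with DEN and 1.54, 1.28 and 1.51 with CCl4, a 33.1-fold deficit with CCl4 (adjusted p = 1.48e-07). Akr7a3, the aflatoxin aldehyde reductase, was 8.48-fold lower and the quinone reductase Nqo1 6.08-fold lower. Genes that regenerate reduced sulfur were lower too. Srxn1, which repairs overoxidised peroxiredoxins, differed by -2.71 ± 0.23, thioredoxin reductase 1 (Txnrd1) by -2.2 ± 0.17 and glutathione reductase (Gsr) by -1.36 ± 0.16. The NADPH-producing pentose phosphate enzymes Taldo1 and Tkt differed by -1.21 ± 0.12 and -0.76 ± 0.1. Ugdh, which makes the sugar donor for glucuronidation, was 4.49-fold lower. Smaller deficits were called for Me1, Gpx2, Prdx1, Ephx1, Abcc4 and Keap1, the inhibitor of NRF2 itself (-0.31 ± 0.1). Those of Me1, Gpx2 and Keap1 did not hold throughout: each lost its call without DEN replicate 2 or CCl4 replicate 1 and on the shared slide, that of Me1 also without DEN replicate 1, CCl4 replicate 2 or CCl4 replicate 3, that of Gpx2 without CCl4 replicate 2 or 3 and that of Keap1 without DEN replicate 1. With slide as a block, and with the groups compared alone, Me1 and Gpx2 were not called. Without DEN replicate 2 the difference of Gpx2 was -0.60. Nfe2l2, which encodes NRF2, was the member called higher with CCl4 (0.59 ± 0.14, adjusted p = 0.00444), and this call ended with spike-in scaling, with slide as a block and on the shared slide. Hmox1, heme oxygenase 1, differed by -0.06 ± 0.15 (adjusted p = 0.791).

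Against controls, which both compounds share, Gclc differed by 2.81 with DEN and 0.1 with CCl4, and Nqo1 by 4.91 and 2.31. Txnrd1 differed by 1.46 with DEN and -0.74 with CCl4, and Ugdh by 1.63 and -0.54. Of all genes, 21.8% were called higher and 31.1% lower with DEN than in controls (52.9% in all), and 28.2% higher and 36.3% lower with CCl4 (64.5% in all). Within the DEN group the list moved together: replicate 2 was the highest DEN array for 21 of the 24 members and replicate 3 the lowest for 22.

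**Figure D3:**
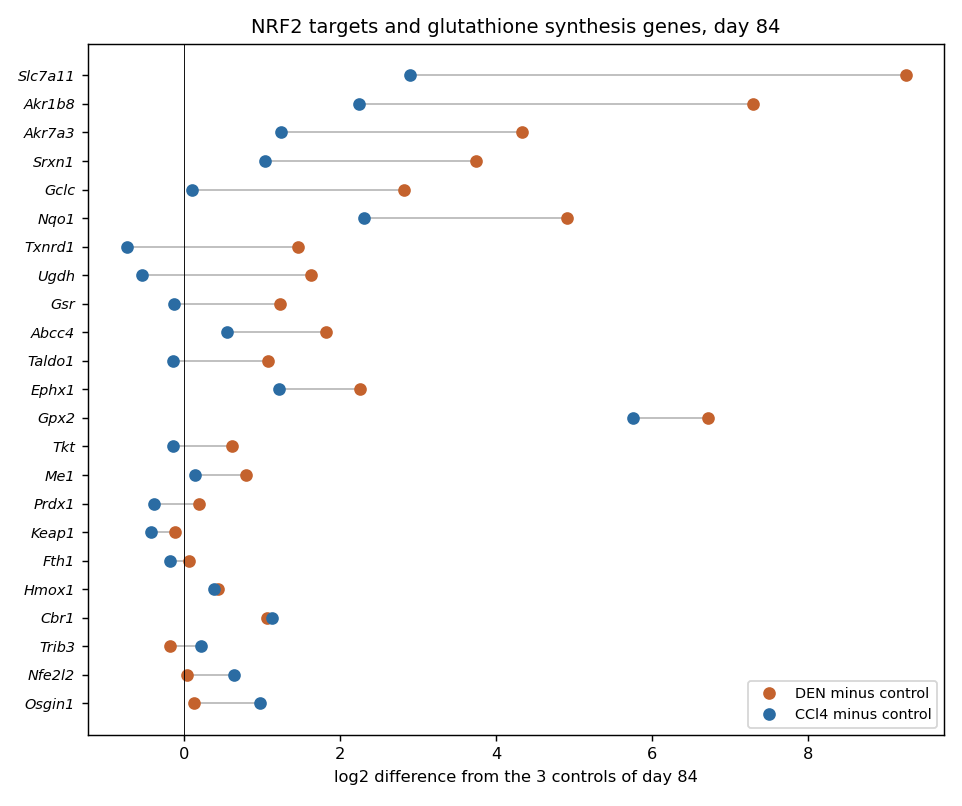
For 23 of the 24 tested NRF2 list members, points show the log2 difference from the 3 controls of day 84 with DEN (orange) and with CCl4 (blue), ordered by the gap between the compounds. The gap is widest for Slc7a11 and Akr1b8, and the order of the points is turned for Cbr1, Trib3, Nfe2l2 and Osgin1.

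NRF2 binds antioxidant response elements, and the promoters of these genes were searched for the core of that element, TGACNNNGC on both strands, in RefSeq promoter windows that span the gene start (build GRCr8). The core was present in 5 of 20 promoters of the NRF2 list (25%), in 7 of 26 promoters of conjugation enzymes (26.9%) and in 4038 of 33469 promoters of all genes (12.1%). A match is a description of letters and not a site. The stretches below carry it in capitals and are written in the direction of the gene. They come from 5 genes that were called lower with CCl4. Shares count the whole window, and the stretches end before the start. Before the start the core was also in Me1, which was called lower too but is not shown (-0.65 ± 0.22, adjusted p = 0.0354). The core was also in 3 conjugation enzymes that were not called: Gstm5 (-0.11 ± 0.15), Gstm7 (-0.55 ± 0.37) and Gstz1 (-0.47 ± 0.22).
Gstp1: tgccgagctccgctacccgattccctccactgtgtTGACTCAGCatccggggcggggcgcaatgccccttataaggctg
Prdx1: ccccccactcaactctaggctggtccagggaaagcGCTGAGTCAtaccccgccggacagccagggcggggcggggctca
Ugdh: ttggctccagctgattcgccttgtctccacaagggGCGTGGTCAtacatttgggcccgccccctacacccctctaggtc
Gsta3: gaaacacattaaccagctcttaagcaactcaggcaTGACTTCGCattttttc
Gpx2: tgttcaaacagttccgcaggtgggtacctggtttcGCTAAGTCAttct
Gstp1 and Gsta3 carry the core on the strand of the gene, with its first base at positions -61 and -17 from the start. Prdx1, Ugdh and Gpx2 carry it on the other strand, at -135, -207 and -13. The stretches lie at chr1:210769723-210769801 (Gstp1, minus strand), chr5:135383736-135383814 (Prdx1, plus strand), chr14:43202276-43202354 (Ugdh, plus strand), chr9:31154937-31154988 (Gsta3, plus strand) and chr6:101230034-101230081 (Gpx2, minus strand).

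Gstp1, the placental glutathione S-transferase used to mark altered hepatocyte foci, had the smallest adjusted p among the genes named here. It lay at 9.09, 9.0 and 9.15 with DEN, 5.71, 5.62 and 5.66 with CCl4 and 4.3, 4.38 and 4.44 in controls. The 3 groups formed separate levels, with the CCl4 arrays nearer to the controls (CCl4 minus DEN -3.42 ± 0.11, adjusted p = 1.51e-10). At day 28 its difference ran the other way (0.91), and the change between the days was -4.33 ± 0.15 (adjusted p = 6.93e-10). Of 32 conjugation enzymes tested, 16 were lower with CCl4 and 3 higher, with a median of -0.54, and on the shared slide 14 were lower. Alpha, mu and theta class transferases were among those lower: Gsta2 differed by -1.74 ± 0.24, Gsta4 by -1.13 ± 0.12, Gstm1 by -1.15 ± 0.12 and Gstt2 by -0.83 ± 0.15. Gsta3, whose promoter is shown above, differed by -0.86 ± 0.15 and was not called with slide as a block. These families have near-identical copies that a probe can share. Exceptions were Gstm3 (0.92 ± 0.24, not called with spike-in scaling) and the hydroxysteroid sulfotransferases Sult2a1 and Sult2a6, which were higher with CCl4. Sult2a6 lay at 4.63, 5.11 and 4.19 with DEN and 7.42, 7.39 and 6.88 with CCl4, 6.01-fold higher (adjusted p = 4.25e-05).

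Enzymes that oxidise aldehydes and alcohols were lower with CCl4 at 10 of 19 members and 0 higher (0 at an unadjusted p under 0.05) by limma, with a median of -0.34. Aldh3a1, an aldehyde dehydrogenase scarce in normal liver, lay at 5.8, 6.32 and 4.72 with DEN, -1.35, -1.48 and -1.58 with CCl4 and -1.6, -1.47 and -1.46 in controls. DEN arrays stood apart and CCl4 arrays overlapped the controls, a 136-fold deficit with CCl4 (adjusted p = 1.11e-09). The mitochondrial Aldh1b1 was 4.07-fold lower and Aldh2, the main acetaldehyde dehydrogenase, differed by -0.58 ± 0.15. Aldehyde oxidase 1 (Aox1) differed by -1.12 ± 0.15. Its relative Aox3 was at least 3.85-fold lower, with no CCl4 array well above background, and this call ended on the shared slide. Among 12 ABC transporters, 6 were lower and 2 higher with CCl4, and the 2 became 1 without DEN replicate 1, DEN replicate 3 or CCl4 replicate 1. Abcc2, the canalicular exporter of conjugates, lay at 6.76, 6.74 and 6.64 with DEN and 4.8, 5.05 and 4.69 with CCl4 (-1.86 ± 0.2, adjusted p = 2.06e-05). Abcb1b, a multidrug exporter, differed by -1.03 ± 0.18. Abcg5 and Abcg8 form the canalicular sterol exporter. Abcg5 differed by -3.1 ± 0.33 and Abcg8 was at least 1.86-fold lower. Of 30 xenobiotic P450 genes, 4 were lower and 1 higher (3 without DEN replicate 3). Cyp2e1, which activates CCl4, lay at 7.54, 6.94 and 7.96 with DEN and 7.93, 7.95 and 7.87 with CCl4, and the difference did not pass the test (0.44 ± 0.24, adjusted p = 0.165).

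Targets of p53 were lower with CCl4 than with DEN: 14 of 24 tested members were called lower and 1 higher, with a median of -0.53, and on the shared slide 10 were lower. Mdm2, the ubiquitin ligase that restrains p53, lay at 1.77, 1.34 and 1.57 with DEN, 0.16, 0.04 and -0.04 with CCl4 and -0.14, -0.05 and -0.19 in controls. DEN arrays stood above the rest, and Mdm2 was 2.84-fold lower with CCl4 (adjusted p = 1.55e-06). Ccng1, cyclin G1, lay at 3.02, 2.72 and 3.17 with DEN and 1.51, 1.37 and 1.49 with CCl4, 2.85-fold lower (adjusted p = 7.38e-07). The apoptosis gene Bax differed by -0.8 ± 0.08, and Tp53inp1, an inducer of p53-dependent death, by -1.47 ± 0.15. Mgmt, which removes alkyl groups from guanine, differed by -1.25 ± 0.13, the stress cytokine Gdf15 by -1.43 ± 0.41 (not called on the shared slide or with slide as a block) and Plk2 by -1.21 ± 0.18. Cdkn1a, the p53-induced cell cycle inhibitor p21, lay at 4.82, 4.66 and 4.81 with DEN and 4.56, 4.89 and 4.65 with CCl4, overlapping, and below the controls (5.36, 5.36 and 5.22) in both. Its difference was -0.07 ± 0.12 (adjusted p = 0.707). Over 20 alternatives the Cdkn1a difference ranged from -1.64 to 0.05, and 1 of them called it, so its lack of a call depended on the processing. At day 28, 16 of the 24 were lower with CCl4, with a median of -0.43, where 24.8% of all genes were lower and 20.5% higher (45.2% in all). The difference for Mdm2 was -1.51 at day 84 and -1.48 at day 28. The difference changed between the days for 4 members, 3 upwards and 1 downwards, where 10.3% and 9.07% of all genes did so (19.4% in all). Dram1, an autophagy regulator, was the member called higher with CCl4 (0.95 ± 0.26), and this call ended with spike-in scaling, with slide as a block and on the shared slide. Of 21 DNA repair genes, 6 were higher and 2 lower. The 6 became 2 on the shared slide and 0 with spike-in scaling, and the 2 became 1 without CCl4 replicate 3.

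Genes of the extracellular matrix were higher with CCl4: 17 of 20 tested members were called higher by limma, with 0 lower (0 at an unadjusted p under 0.05) and a median of 1.52, and on the shared slide 14 were higher. Col1a1, the main fibrillar collagen chain of scars, lay at 0.86, 1.21 and 0.95 with DEN, 3.18, 3.41 and 4.09 with CCl4 and 0.5, 0.29 and 0.59 in controls. CCl4 arrays stood above the rest without overlap (5.88-fold, 2.56 ± 0.37, adjusted p = 0.000163). Col1a2 was 5.09-fold higher and Col3a1 3.85-fold. Elastin (Eln) lay at -1.03, -0.33 and -0.76 with DEN and 1.54, 1.44 and 1.99 with CCl4 (2.36 ± 0.24, adjusted p = 1.31e-05). Loxl1, which crosslinks elastin, differed by 3.04 ± 0.4 and thrombospondin 2 (Thbs2) by 2.54 ± 0.29. The small proteoglycans biglycan (Bgn), decorin (Dcn) and lumican (Lum) differed by 1.42 ± 0.18, 1.62 ± 0.32 and 1.9 ± 0.6, the last not called without DEN replicate 3 or CCl4 replicate 1 or with spike-in scaling. Fibronectin (Fn1), which hepatocytes also secrete, did not pass the test (-0.15 ± 0.11, adjusted p = 0.316), nor did Lamc1 and Efemp1.

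Matrix proteases and their inhibitors were higher with CCl4 at 11 of 16 members and 0 lower (0 at an unadjusted p under 0.05) by limma, with a median of 1.09. Timp1, the inhibitor of metalloproteinases induced in fibrosis, lay at 3.18, 3.34 and 3.0 with DEN, 5.18, 5.55 and 5.66 with CCl4 and 1.75, 1.81 and 1.84 in controls. The groups formed 3 separate levels, with CCl4 4.88-fold above DEN (adjusted p = 2.26e-05). Timp2 differed by 1.46 ± 0.17, the gelatinase Mmp2 by 1.91 ± 0.29 and Mmp23 by 2.2 ± 0.31. Serpinh1, the collagen chaperone, differed by 1.3 ± 0.26. Macrophage elastase (Mmp12) lay at 0.22, 1.07 and -0.41 with DEN and 2.64, 2.1 and 2.56 with CCl4 (2.14 ± 0.56, adjusted p = 0.00975), and its call ended with slide as a block and on the shared slide.

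Of 16 stellate cell and myofibroblast markers, 12 were higher with CCl4 by limma, with 0 lower (0 at an unadjusted p under 0.05) and a median of 1.41, and on the shared slide 11 were higher. Summed over the 16 markers as linear signal, the level was 216 to 243 with CCl4, 113 to 118 with DEN and 113 to 124 in controls. Desmin (Des), the filament of stellate cells, lay at -0.64, -0.74 and -0.27 with DEN and 1.08, 0.93 and 1.42 with CCl4 (1.69 ± 0.35, adjusted p = 0.00232). Cygb, the globin of stellate cells, differed by 2.08 ± 0.28, and the growth factor receptors Pdgfrb and Pdgfra by 1.84 ± 0.23 and 1.74 ± 0.22. For Pdgfra the gap widened from 0.15 at day 28 (adjusted p = 0.00403 for the change). Smooth muscle actin (Acta2) lay at -1.91, -1.63 and -1.82 with DEN and -0.82, -0.72 and -0.78 with CCl4. The groups did not overlap, but the fit did not call it (1.01 ± 0.5, adjusted p = 0.134). The retinol-storing enzyme Lrat differed by -0.15 ± 0.29 (adjusted p = 0.723). In whole liver, more cells of a type and more RNA per cell cannot be told apart, here and for every marker list that follows.

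In the TGF-beta pathway, which drives collagen synthesis in stellate cells, 3 of 15 members were higher with CCl4 and 1 lower, with a median of 0.18. Of all genes, 18.8% were higher and 15.9% lower, so the share of members higher was near that of all genes. Tgfb3 lay at -1.54, -1.32 and -1.39 with DEN, 1.35, 0.71 and 1.28 with CCl4 and -1.43, -1.78 and -1.64 in controls. DEN arrays were within or near the control range and CCl4 arrays 5.78-fold higher than DEN (2.53 ± 0.23, adjusted p = 4.15e-06). Ltbp1, which anchors latent TGF-beta in the matrix, differed by 2.09 ± 0.23 and Tgfb1 by 0.93 ± 0.12. The gaps of Tgfb3 and Ltbp1 were wider than at day 28, with changes of 1.46 ± 0.32 (adjusted p = 0.00826) and 1.21 ± 0.32 (adjusted p = 0.0206). Neither change was called with spike-in scaling, nor that of Ltbp1 with slide as a block. The receptor Tgfbr1 differed by 0.26 ± 0.12 (adjusted p = 0.12) and the inhibitor Smad7 by 0.00 ± 0.15 (adjusted p = 0.992). Ldlrad4, a brake on the pathway that the study followed up, was lower with CCl4 and is given with the other followed genes.

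**Figure D4:**
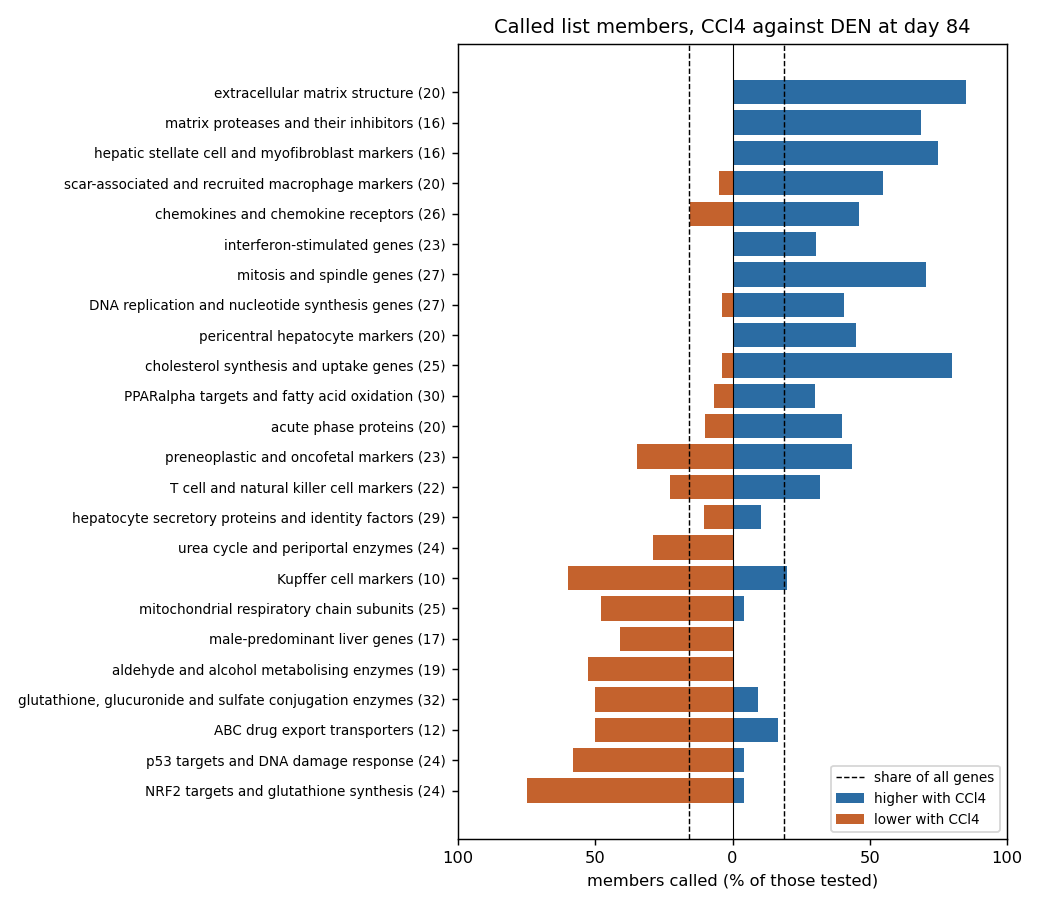
Bars show, for a selection of the gene lists, the share of tested members called higher (blue, right) and lower (orange, left) with CCl4 than with DEN at day 84, and the number tested stands in parentheses. Dashed lines mark the shares of all genes, 18.8% higher and 15.9% lower. Of the lists drawn, those of matrix, cholesterol synthesis and stellate cells reach farthest to the right, and those of NRF2, Kupffer cells and p53 farthest to the left.

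Of 20 markers of scar-associated and recruited macrophages, 11 were higher with CCl4 and 1 lower, with a median of 0.74, and the 11 became 7 both with slide as a block and on the shared slide. Trem2 lay at -1.22, -0.68 and -1.3 with DEN, 3.98, 3.72 and 3.72 with CCl4 and -3.89, -4.26 and -3.87 in controls. CCl4 arrays were far above DEN arrays, and no control array was well above background (29.2-fold, 4.87 ± 0.78, adjusted p = 0.000381). Gpnmb, a glycoprotein of lipid-laden macrophages, differed by 1.6 ± 0.17, the endotoxin receptor Cd14 by 1.62 ± 0.2 and lysozyme (Lyz2) by 1.17 ± 0.16. Lyz2 had been lower with CCl4 at day 28 (-0.61, change 1.78 ± 0.22, adjusted p = 0.00024). Osteopontin (Spp1) differed by 2.76 ± 0.45, a call that ended on the shared slide. The general macrophage markers Cd68, Csf1r and Adgre1 did not pass the test, at 0.33, 0.28 and 0.28. The summed level of the 20 markers was 1190 to 1390 with CCl4, 1140 to 1180 with DEN and 1400 to 1490 in controls. By this sum CCl4 arrays lay above DEN arrays and below controls, but a sum weighs the brightest probes most. Counted singly, 13 of the 20 were called higher with CCl4 than in controls and 3 lower, with a median of 1.01. Of all genes, 28.2% were higher and 36.3% lower in that comparison.

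Among 10 Kupffer cell markers, 6 were lower with CCl4 and 2 higher, with a median of -0.80. Clec4f, the Kupffer cell lectin, lay at 6.1, 5.71 and 6.27 with DEN, 3.69, 3.15 and 4.94 with CCl4 and 6.73, 6.83 and 6.59 in controls. All CCl4 arrays were below all others, and Clec4f was 4.29-fold lower than with DEN (-2.1 ± 0.32, adjusted p = 0.000274). Cd5l, a secreted macrophage protein, was 2.63-fold lower and the iron exporter Slc40a1 1.51-fold, the latter not called on the shared slide. The scavenger receptor Marco was 4.1-fold lower (adjusted p = 0.0117), a call that ended without DEN replicate 3. Vsig4, the complement receptor, differed by -1.38 ± 0.34 and was not called with the groups compared alone. The folate receptor Folr2 and Id3 went the other way (1.06 ± 0.13 and 0.48 ± 0.16). The call of Id3 ended without DEN replicate 2 or 3 or CCl4 replicate 3, in the last case at 0.29, and with spike-in scaling, the groups compared alone, slide as a block or random block, and on the shared slide. The summed level of the 10 markers was 116 to 149 with CCl4, 156 to 211 with DEN and 261 to 293 in controls.

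Chemokines were higher with CCl4 at 12 of 26 members and lower at 4, with a median of 0.53. Ccl21, which draws dendritic cells and T cells into lymphoid tissue, lay at 1.63, 0.89 and 1.55 with DEN, 5.69, 5.37 and 4.63 with CCl4 and 1.24, 0.68 and 0.21 in controls. CCl4 arrays lay above all others (14.6-fold, 3.87 ± 0.31, adjusted p = 1.35e-06), and the gap had been 1.16 at day 28 (change 2.71 ± 0.43, adjusted p = 0.0014). Ccl21 has close copies in rats that a probe may share. The monocyte chemokine Ccl2 differed by 2.5 ± 0.55 and Ccl7 was at least 4.64-fold higher. Fractalkine (Cx3cl1) differed by 2.49 ± 0.34, Ccl20 by 2.44 ± 0.68 and Cxcr4 by 1.22 ± 0.12. Interferon-inducible Cxcl9 and the T cell chemokine Ccl5 were lower (-0.92 ± 0.2 and -0.58 ± 0.16). The calls of Ccl20 and Ccl5 ended without DEN replicate 3, on the shared slide, with slide as a block and with the groups compared alone, that of Ccl20 also without DEN replicate 1 and that of Ccl5 without CCl4 replicate 3. The call of Cxcl9 ended with slide as a block. Counts of this list depended on the arrays used. The 12 became 7 on that slide alone and with slide blocked, and the 4 became 2 without DEN replicate 1, CCl4 replicate 2 or CCl4 replicate 3. They became 1 without DEN replicate 3, on the shared slide and with the groups compared alone, and those calls ended with slide as a block.

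T cell and natural killer cell genes went both ways. Cd4, Cd3g and Cd3d were higher with CCl4 by 1.09 ± 0.15, 0.92 ± 0.17 and 0.94 ± 0.18. Granzyme A (Gzma), a protease of cytotoxic cells, lay at 0.34, 0.25 and 0.9 with DEN and -0.62, -0.94 and -1.12 with CCl4, below the controls in both (-1.39 ± 0.2, adjusted p = 0.000139). In all, 7 of 22 members were higher and 5 lower. The 7 became 4 with spike-in scaling, and the 5 became 1 on that slide alone and with slide blocked, 3 without DEN replicate 1, and 2 without DEN replicate 3 or CCl4 replicate 3. Of 23 interferon-stimulated genes, 7 were higher by limma, with 0 lower (0 at an unadjusted p under 0.05) and a median of 0.22. Oasl differed by 1.97 ± 0.29 and Isg15, the ubiquitin-like modifier, by 1.28 ± 0.22. Among 9 neutrophil and mast cell markers, 5 were higher and 1 lower. S100a9, the calgranulin of neutrophils, lay at -0.64, -0.97 and 0.1 with DEN and 1.49, 0.87 and 0.23 with CCl4 (1.37 ± 0.34, adjusted p = 0.00753). The mast cell tryptase Tpsb2 differed by 2.89 ± 0.53. Tpsab1 was lower (-0.82 ± 0.17), but the mean of its probes gave 1.66. The 5 became 2 without DEN replicate 1 or CCl4 replicate 1 and 3 without DEN replicate 2, CCl4 replicate 2 or CCl4 replicate 3. Of 7 B cell markers, 1 was lower (Blk, -1.31 ± 0.2). Of 13 endothelial markers, 3 were higher and 3 lower, and on the shared slide 0 and 1. Kdr, the sinusoidal VEGF receptor, differed by -0.79 ± 0.13 and was not called on the shared slide.

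Of 15 cholangiocyte markers, 5 were higher with CCl4 and 1 lower, with a median of 0.47. The water channel Aqp1 lay at 1.72, 1.35 and 0.98 with DEN and 3.84, 3.66 and 3.27 with CCl4 (2.25 ± 0.21, adjusted p = 5.67e-06), and Prom1 differed by 2.06 ± 0.45. The duct keratin Krt19 lay at 1.0, 1.48 and 0.55 with DEN and 1.1, 0.88 and 1.12 with CCl4, overlapping (0.02 ± 0.42, adjusted p = 0.978). Both were above the controls (-1.28, -1.55 and -2.07). The 5 became 3 without DEN replicate 3 or CCl4 replicate 1 and 2 on the shared slide. The tight junction gene Cldn5, expressed in vascular endothelium, differed by 3.01 ± 0.46 (adjusted p = 0.00026), against 0.39 at day 28.

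Cell cycle genes were higher with CCl4 than with DEN at day 84, by much less than at day 28. Of 27 mitosis and spindle genes, 19 were called higher by limma, with 0 lower (0 at an unadjusted p under 0.05) and a median of 0.89. At day 28 all 27 were higher, with a median of 2.74, and the gap shrank for 27 of 27. The proliferation antigen Mki67 lay at 1.98, 2.16 and 1.8 with DEN, 2.89, 2.93 and 3.14 with CCl4 and -0.11, -0.33 and 0.19 in controls. CCl4 arrays were the highest and DEN arrays lay between them and the controls (1.01 ± 0.2, adjusted p = 0.00175). At day 28 the difference was 2.49 (change -1.49 ± 0.28, adjusted p = 0.00384). Foxm1, the transcription factor of mitotic genes, differed by 0.75 ± 0.15 and the kinase Bub1 by 0.85 ± 0.22. Cdk1 lay at 3.18, 3.5 and 2.91 with DEN and 3.88, 3.75 and 4.1 with CCl4, without overlap, and was not called (0.71 ± 0.29, adjusted p = 0.0741). The count of 19 was 11 without DEN replicate 1, 8 without DEN replicate 3 and 7 without CCl4 replicate 3. It was 1 with slide as a block, 2 on the shared slide, 11 with slide as a random block and 5 with spike-in scaling. Foxm1 lost its call with slide as a block, and Bub1 with that, on the shared slide and with spike-in scaling. Among the DEN arrays replicate 2 was the highest for 26 of the 27 genes and replicate 3 the lowest for 27. Among the CCl4 arrays replicate 3 was the highest for 26 and replicate 1 the lowest for 22.

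Of 27 replication genes, 11 were higher with CCl4 and 1 lower, with a median of 0.49 against 1.21 at day 28, and the gap shrank for 16. Cdc45, which opens the replication fork, lay at 1.17, 1.31 and 1.07 with DEN and 1.93, 2.05 and 1.83 with CCl4 (0.75 ± 0.14, adjusted p = 0.000998). Thymidine kinase (Tk1) differed by 0.92 ± 0.19, not called with slide as a block or on the shared slide. Pcna differed by 0.13 ± 0.12 (adjusted p = 0.426). The 11 became 6 without DEN replicate 3 or CCl4 replicate 1, 7 without CCl4 replicate 3, 4 on that slide alone and with slide blocked, and 3 with spike-in scaling. Among G1 regulators, 3 of 17 were higher and 2 lower. Cdkn2a, the senescence-linked inhibitor locus, lay at -0.39, 0.22 and -1.22 with DEN and -1.94, -1.94 and -1.87 with CCl4 (-1.46 ± 0.36, adjusted p = 0.00658). At day 28 it had been higher with CCl4 (1.73, change -3.19 ± 0.51, adjusted p = 0.00133). Its day 84 call ended with slide as a block and on the shared slide.

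The contrast at day 28 rests on 6 other arrays, so the calls of both days can be set against each other. Of the 2032 genes higher with CCl4 at day 84, 1008 were also higher at day 28, which is 49.6% of the day 84 list and 45.6% of the 2210 at day 28. Of the 1719 lower, 919 were also lower, 53.5% of the day 84 list and 34.4% of the 2673 at day 28. Among all genes tested, 20.5% were higher and 24.8% lower at day 28, and 18.8% and 15.9% at day 84. In each direction 90 genes had the opposite call at day 28. The difference itself changed for 2094 genes, 1115 upwards and 979 downwards. Scaled to the spike-in probes, 123 upwards and 3605 downwards were called, with a median change of -0.49 in place of 0.07. Without DEN replicate 2 of day 84, 1191 were called.

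The genes that changed most between the days included several that were high with DEN at day 84. Slc7a11 had been higher with CCl4 at day 28 (2.9) and changed by -9.26 ± 0.55 (adjusted p = 2.9e-07). For Aldh3a1 the difference was 0.05 at day 28 and changed by -7.13 ± 0.38, and for Ugt2b7 it was -0.25 and changed by -7.53 ± 0.43. Of the 24 NRF2 members, 8 were higher and 2 lower with CCl4 at day 28, and the difference fell for 18. Trim54, a muscle ring finger protein, was at least 66.9-fold lower with CCl4 at day 84, with no CCl4 array well above background. In the other direction, Meox1, a homeobox gene of fibroblasts, was at least 6.1-fold higher with CCl4 at day 84, with no DEN array well above background, and Plcxd3, a phospholipase-like gene, at least 6.06-fold. Sult2a1 lay at 2.73, 1.42 and 3.0 with DEN and 4.78, 3.98 and 3.96 with CCl4. It changed from -2.9 at day 28 to 1.85 (adjusted p = 0.00386 for the change), and its day 84 call ended without the filter on dim probes and without any of DEN replicates 1 and 2 and CCl4 replicates 1 to 3. Ltc4s, leukotriene C4 synthase, went from -5.24 to -2.04, and Slc1a2, a pericentral glutamate transporter, from -1.41 to 1.66. Ros1, a receptor kinase, was at least 2.91-fold higher with CCl4 at day 84, with no DEN array well above background, a call that ended without any of DEN replicates 1 and 3 and CCl4 replicates 1 and 3, and with slide as a block.

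**Figure D5:**
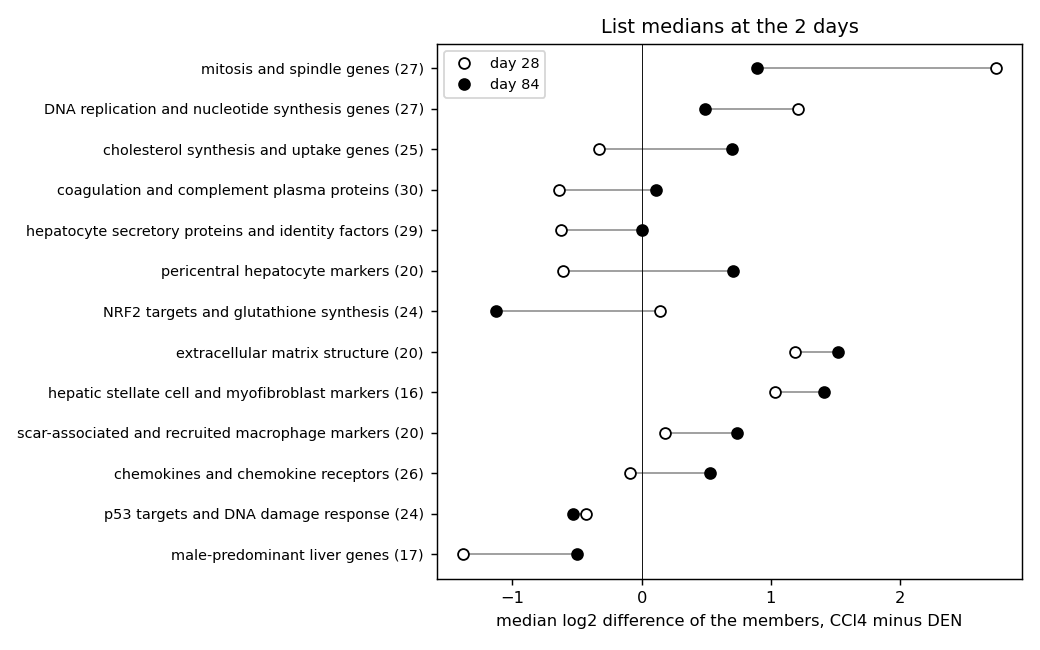
For each list, the hollow point is the median log2 difference CCl4 minus DEN of its tested members at day 28 and the filled point that at day 84. Mitosis genes fall from 2.74 to 0.89, cholesterol synthesis genes go from -0.33 to 0.70, pericentral markers from -0.61 to 0.71 and NRF2 genes from 0.14 to -1.13, while p53 targets stay near -0.5.

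Pericentral hepatocyte markers were higher with CCl4 than with DEN at day 84. Of 20 members, 9 were higher by limma, with 0 lower (0 at an unadjusted p under 0.05) and a median of 0.71, and the 9 became 5 on the shared slide. Nkd1, a feedback inhibitor of Wnt signalling, lay at -1.33, -1.44 and -1.23 with DEN, 0.81, 0.32 and 1.12 with CCl4 and -1.55, -2.02 and -1.98 in controls. CCl4 arrays were above both other groups (2.08 ± 0.23, adjusted p = 1.9e-05). Lect2, a secreted Wnt target of hepatocytes, differed by 1.44 ± 0.2, and the vasopressin receptor Avpr1a by 1.73 ± 0.38. Tbx3, a Wnt-induced transcription factor, lay at -0.69, -0.79 and 0.13 with DEN, 0.91, 1.08 and 1.53 with CCl4 and 1.26, 1.39 and 1.05 in controls. CCl4 and control arrays overlapped here (1.63 ± 0.25, adjusted p = 0.000249), and the call ended on the shared slide. Glutamine synthetase (Glul) lay at 1.78, 1.52 and 1.8 with DEN, 2.27, 2.11 and 2.82 with CCl4 and 2.54, 2.42 and 2.63 in controls (0.7 ± 0.18, adjusted p = 0.00991). The DEN arrays were below both other groups. The Glul call ended without CCl4 replicate 3, with spike-in scaling, with slide as a block, on the shared slide and with the mean of its probes. At day 28, 3 of the 20 were higher and 6 lower, with a median of -0.61, and the difference rose for 11. The summed level of the 20 markers was 479 to 525 with CCl4, 256 to 465 with DEN and 733 to 774 in controls.

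Of 24 urea cycle and periportal genes, 7 were lower with CCl4 by limma, with 0 higher (1 at an unadjusted p under 0.05) and a median of -0.40, against 19 lower at day 28. Histidine ammonia lyase (Hal) lay at 5.95, 5.51 and 6.27 with DEN, 3.79, 4.34 and 3.86 with CCl4 and 6.86, 6.87 and 6.72 in controls, 3 levels without overlap (3.77-fold lower, -1.92 ± 0.26, adjusted p = 0.000102). Ornithine transcarbamylase (Otc) differed by -0.8 ± 0.18 and the glucagon receptor Gcgr by -0.51 ± 0.09. Carbamoyl phosphate synthetase (Cps1) differed by -0.06 ± 0.17 (adjusted p = 0.797). Few general hepatocyte products passed the test at day 84. Of 29 secretory proteins and identity factors, 3 were higher and 3 lower, with a median of 0.00, against 22 lower at day 28. The 3 higher became 5 without CCl4 replicate 1, and the 3 lower became 1 without DEN replicate 1, DEN replicate 3 or CCl4 replicate 3. Nr1i3, the constitutive androstane receptor, lay at 3.68, 4.12 and 4.0 with DEN and 2.88, 2.91 and 2.94 with CCl4 (-1.02 ± 0.19, adjusted p = 0.000947). Hnf4a, the master regulator of hepatocytes, differed by -0.42 ± 0.13. That call ended without DEN replicate 1 or 3 or CCl4 replicate 3, with slide as a block and on the shared slide.

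For most plasma protein genes the difference moved upwards between the days. Of 30 coagulation and complement genes, 6 were higher and 2 lower with CCl4 at day 84, against 28 lower at day 28, and the difference rose for 23. Complement C4a lay at 7.75, 7.52 and 8.04 with DEN, 8.67, 8.9 and 8.62 with CCl4 and 8.96, 9.13 and 8.98 in controls (0.96 ± 0.14, adjusted p = 0.000188). At day 28 it had been lower with CCl4 (-0.59). The 6 became 10 with quantile normalization, 3 with spike-in scaling or slide as a block and 1 on the shared slide. Of 20 acute phase genes, 8 were higher and 2 lower, with a median of 0.27. Lipopolysaccharide-binding protein (Lbp) lay at 3.01, 3.39 and 3.06 with DEN, 5.14, 5.42 and 5.13 with CCl4 and 3.08, 2.86 and 2.87 in controls. DEN arrays overlapped the controls, and CCl4 arrays were 4.21-fold above DEN (adjusted p = 4.56e-06). Orosomucoid (Orm1) differed by 1.2 ± 0.2, whereas alpha-2-macroglobulin (A2m) did not pass the test (-0.14 ± 0.5, adjusted p = 0.856). The 8 became 5 without DEN replicate 2 or CCl4 replicate 2, 4 with spike-in scaling or slide as a block and 3 on the shared slide.

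Cholesterol synthesis genes, the targets of SREBP2, were higher with CCl4 than with DEN. Of 25 members, 20 were higher and 1 lower, with a median of 0.70, and 12 were higher with spike-in scaling. At day 28, 9 of the 25 were lower by limma, with 0 higher (0 at an unadjusted p under 0.05), and the difference rose for 20. Hmgcs1, HMG-CoA synthase, lay at 6.05, 5.6 and 5.58 with DEN, 7.35, 7.42 and 7.42 with CCl4 and 6.92, 6.98 and 6.66 in controls. The 3 groups did not overlap, with DEN lowest and CCl4 highest (3.15-fold, 1.66 ± 0.18, adjusted p = 2.06e-05). Msmo1, a sterol demethylation enzyme, lay at 6.24, 5.85 and 5.81 with DEN, 7.43, 7.45 and 7.55 with CCl4 and 6.43, 6.32 and 6.51 in controls (1.51 ± 0.22, adjusted p = 0.000194). Squalene epoxidase (Sqle) differed by 1.34 ± 0.23 and mevalonate decarboxylase (Mvd) by 0.96 ± 0.13. Against controls, Sqle differed by 2.39 with CCl4 and 1.04 with DEN. Among the DEN arrays replicate 1 was the highest for 19 of the 25 genes. The core of the sterol response element, TCACNCCAC on either strand, was in 0 of 17 of these promoters and in 374 of all 33469 (1.12%), so these letters are not in the windows searched.

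Of 20 genes of fatty acid and triglyceride synthesis, 4 were lower with CCl4 and 1 higher, a single gene that lost its call without DEN replicate 2, DEN replicate 3 or CCl4 replicate 2. Without DEN replicate 1, 2 were higher. Stearoyl-CoA desaturase (Scd) lay at 8.12, 7.93 and 7.97 with DEN, 6.44, 6.31 and 5.56 with CCl4 and 8.07, 8.73 and 8.6 in controls. DEN overlapped the controls and CCl4 was 3.75-fold lower than DEN (-1.91 ± 0.32, adjusted p = 0.000512). Lpin1, a phosphatidate phosphatase, differed by -2.09 ± 0.37, not called with slide as a block or on the shared slide. Fatty acid synthase (Fasn) differed by -0.42 ± 0.41 (adjusted p = 0.455). Targets of PPARalpha, the fatty acid sensor, were higher with CCl4 at 9 of 30 members and lower at 2 (4 without DEN replicate 2), with a median of 0.11. Cyp4a1, the fatty acid omega-hydroxylase, lay at 4.78, 4.41 and 5.05 with DEN, 6.58, 6.59 and 6.86 with CCl4 and 5.48, 5.98 and 5.73 in controls. DEN lay below and CCl4 above the controls (3.82-fold, 1.93 ± 0.15, adjusted p = 1.29e-06). Vnn1, a pantetheinase, differed by 2.56 ± 0.3, and the mitochondrial thioesterase Acot2 by 1.28 ± 0.11. The gap for Acot1 had been 9.94 at day 28 and changed by -4.34 ± 0.66 (adjusted p = 0.00107). The mitochondrial import enzyme Cpt1a differed by 0.1 ± 0.16 and was not called. Of 18 bile acid genes, 4 were higher and 2 lower, and the 4 became 1 on the shared slide. Cyp7b1, the oxysterol hydroxylase, differed by 1.42 ± 0.25, and Cyp7a1, the rate-limiting enzyme of bile acid synthesis, by 0.56 ± 0.38 (adjusted p = 0.273).

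Genes expressed mainly in male rat liver, which depend on pulsed growth hormone, held some of the largest deficits with CCl4. Of 17 members, 7 were lower with CCl4 by limma, with 0 higher (1 at an unadjusted p under 0.05) and a median of -0.50, and on the shared slide 8 were lower. Cyp2c11, the male steroid hydroxylase, lay at 7.71, 6.64 and 8.16 with DEN, 0.27, 1.66 and 1.56 with CCl4 and 9.46, 9.46 and 9.38 in controls. The 3 groups did not overlap, and CCl4 was 80.7-fold below DEN (-6.33 ± 0.92, adjusted p = 0.000183). Stac3, an adaptor protein, lay at 2.97, 1.12 and 3.1 with DEN, -4.2, -3.98 and -3.69 with CCl4 and 6.65, 6.28 and 6.48 in controls, 81.8-fold lower with CCl4 (adjusted p = 4.63e-05). Mup4 lay at 4.42, 2.98 and 4.36 with DEN and -5.01, -3.86 and -3.5 with CCl4, with 2 CCl4 arrays well above background, against 8.06, 7.93 and 7.73 in controls (-8.04 ± 1.32, adjusted p = 0.000447). Mup5 lay at 9.14, 8.63 and 9.24 with DEN and 1.0, 2.4 and 4.53 with CCl4 (-6.36 ± 1.27). The urinary protein genes are near-identical copies, so their separate values are uncertain, and on CCl4 replicate 3 each of the 5 Mup genes was higher than on the other CCl4 arrays. Carbonic anhydrase 3 (Car3) differed by -3.46 ± 0.74. The male genes Cyp2c13, Cyp3a2 and Cyp2a2 did not pass the test, at 0.18, 0.56 and 0.12. Within the DEN group, replicate 2 was the lowest array for 17 of the 17 genes and replicate 3 the highest for 16.

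Of 14 female-predominant genes, 4 were higher with CCl4 and 2 lower. The 4 became 2 without any of DEN replicates 1 and 2 and CCl4 replicates 1 to 3, and the 2 became 1 without CCl4 replicate 2 or 3. Cyp2c12, the female steroid hydroxylase, lay at 4.1, 4.51 and 4.04 with DEN and 4.05, 3.44 and 3.59 with CCl4, both above the controls (0.71, 0.8 and 0.34). Its small deficit with CCl4 (-0.53 ± 0.16, adjusted p = 0.0211) was not called with quantile normalization, on the shared slide, with slide as a block or random block, with the groups compared alone, or without DEN replicate 2, CCl4 replicate 2 or CCl4 replicate 3. Bcl6, a repressor of female genes in male liver, lay at 3.12, 4.01 and 4.38 with DEN, 1.28, 1.0 and 1.02 with CCl4 and 2.49, 2.18 and 1.98 in controls. DEN stood above and CCl4 below the controls (6.67-fold lower with CCl4, adjusted p = 0.000594). The growth hormone receptor (Ghr) and Igf1 differed by -0.09 ± 0.24 and 0.01 ± 0.21, and were not called. For Igf1 the difference had been -1.35 at day 28. Igfbp2, a binding protein that rises when growth hormone action is low, differed by 1.74 ± 0.34.

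Subunits of the respiratory chain were slightly lower with CCl4, at 12 of 25 members, with 1 higher and a median of -0.25. The 12 became 7 without CCl4 replicate 3 and on the shared slide. Sdha, the flavoprotein of complex II, lay at 6.47, 6.46 and 6.67 with DEN and 6.04, 6.12 and 6.0 with CCl4, without overlap (-0.48 ± 0.1, adjusted p = 0.00265). The complex III core protein Uqcrc2 differed by -0.5 ± 0.09 and Ndufv1 of complex I by -0.4 ± 0.09, while Cox4i1 differed by -0.02 ± 0.08 (adjusted p = 0.891). The member called higher was Cox6a2, described above. Its liver counterpart Cox6a1 differed by -0.08 ± 0.07 (adjusted p = 0.353). Of 23 genes of the amino acid response and endoplasmic reticulum stress, 7 were lower and 2 higher, with a median of -0.24. Fewer were called on the shared slide. The 2 higher were Atf3 (1.01) and Ddit3. Both calls ended with spike-in scaling, slide as a block, the groups compared alone, on the shared slide and without DEN replicate 2. That of Atf3 also ended without DEN replicate 3 or CCl4 replicate 1 or 3, and that of Ddit3 without DEN replicate 1 or CCl4 replicate 2. Psat1, of serine synthesis, differed by -1.28 ± 0.25 at day 84 and by 1.59 at day 28 (adjusted p = 0.000188 for the change), and its day 84 call ended on the shared slide. Of 24 glycolytic and gluconeogenic isozymes, 2 were higher and 2 lower, with a median of -0.13, against 18.8% and 15.9% of all genes. The 2 higher became 1 without DEN replicate 3 or CCl4 replicate 3. The 2 lower became 1 without CCl4 replicate 2 or 3 and 4 without CCl4 replicate 1. Pkm, the pyruvate kinase of dividing and non-parenchymal cells, lay at 0.5, 0.48 and 0.38 with DEN and 1.98, 1.67 and 1.87 with CCl4 (1.39 ± 0.22, adjusted p = 0.000391). Pklr, the hepatocyte form, differed by -1.09 ± 0.27, not called with slide as a block.

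Of 23 markers of preneoplastic foci and of oncofetal expression, 10 were higher and 8 lower with CCl4. The 8 lower were the detoxifying enzymes Aldh3a1, Akr1b8, Gstp1, Akr7a3, Gpx2 and Aldh1a1, the transporter Abcc3 and Ggt1. Gamma-glutamyl transferase 1 (Ggt1), a classical marker of foci in rats, lay at 1.67, 2.73 and 1.08 with DEN, -0.87, -1.13 and -1.41 with CCl4 and -3.29, -4.27 and -4.24 in controls. The 3 groups did not overlap (7.81-fold lower with CCl4, adjusted p = 0.00153), and at day 28 Ggt1 had been higher with CCl4 (1.73). Alpha-fetoprotein (Afp) lay at 5.61, 5.42 and 5.64 with DEN, 6.59, 6.19 and 6.32 with CCl4 and 5.69, 5.61 and 5.64 in controls (0.81 ± 0.14, adjusted p = 0.000536). Gpc3, a fetal glypican, differed by 1.19 ± 0.37, not called without DEN replicate 2, DEN replicate 3 or CCl4 replicate 1, with spike-in scaling, with the groups compared alone or on the shared slide. Cd44, a hyaluronan receptor, differed by 1.38 ± 0.37 (not called with slide as a block) and the plasma peroxidase Gpx3 by 2.71 ± 0.24. Several of those higher, such as Cd44 and Lcn2, are also made by non-parenchymal cells. The summed level of the 23 genes was 1460 to 1820 with DEN, 436 to 449 with CCl4 and 124 to 137 in controls. A sum weighs the brightest probes most, and the median difference of the 23 was 0.57, higher with CCl4. The 10 became 6 without DEN replicate 3, with slide as a block and on the shared slide, and the 8 became 5 on the shared slide.

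Some genes were called on opposite sides of the controls, which both comparisons share. The largest gap was that of Cryl1, a sugar dehydrogenase, which lay at 5.83, 6.17 and 5.54 with DEN, 3.0, 3.14 and 3.46 in controls and 1.94, 2.39 and 1.33 with CCl4. No groups overlapped, and CCl4 was 15.6-fold below DEN (adjusted p = 3.36e-07). Abcg5 and Mme, the membrane peptidase neprilysin, had the same order, with Mme at 0.36, 0.48 and 0.36 with DEN, -0.3, -0.35 and -0.19 in controls and -2.16, -2.58 and -2.21 with CCl4. The urate transporter Slc22a12 was at least 5.04-fold lower with CCl4. In the other direction, the phosphatase gene Ptprr lay at -2.27, -2.42 and -2.12 with DEN, -1.9, -1.64 and -1.53 in controls and 0.15, 0.01 and -0.25 with CCl4 (4.73-fold higher, adjusted p = 2.92e-06). Cox8b, another muscle-type oxidase subunit, differed by 2.18 ± 0.14 and was -0.31 at day 28. Usp13, Or2t48 and Gria4 were at least 1.41-fold to 2.19-fold higher with CCl4, with no DEN array well above background. For these 3 genes the calls against controls rest on signals near background.

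The 4 genes that the study followed up, known from its publication, were all lower with CCl4 than with DEN, with a median of -0.54. Nfia, a developmental transcription factor, lay at 0.31, 0.43 and 0.43 with DEN, -0.32, -0.04 and -0.42 with CCl4 and 0.68, 0.77 and 0.79 in controls. CCl4 was below DEN and DEN below the controls (-0.65 ± 0.11, adjusted p = 0.000478), a call that ended with the mean of all probes. Cdh17, liver-intestine cadherin, lay at 3.85, 2.5 and 3.91 with DEN, 1.65, 1.55 and 2.71 with CCl4 and 5.12, 5.18 and 5.0 in controls (-1.45 ± 0.34, adjusted p = 0.00476). DEN replicate 2 fell within the CCl4 range, and the call ended on the shared slide and with the groups compared alone. Ldlrad4 lay at 0.04, 0.05 and 0.04 with DEN and -0.24, -0.19 and -0.3 with CCl4 (-0.29 ± 0.1, adjusted p = 0.0312). Protein C (Proc), the anticoagulant protease, lay at 7.64, 7.47 and 7.85 with DEN and 7.2, 7.41 and 7.09 with CCl4 (-0.42 ± 0.15, adjusted p = 0.0392). Both calls ended without the filter on dim probes, with slide as a block or random block, on the shared slide and without any of DEN replicates 1 and 3 and CCl4 replicates 1 and 3. That of Ldlrad4 also ended without DEN replicate 2 and with spike-in scaling, that of Proc with the groups compared alone. At day 28 the differences were -1.46, -0.74, -0.75 and -1.2, 3 of the 4 called, and those of Nfia, Ldlrad4 and Proc were nearer to 0 at day 84. The study chose these genes on these samples, so their direction is not independent evidence.

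Markers of tissues that a liver sample could carry along were checked. Of 12 pancreatic acinar markers, 5 were tested, of which 1 was higher with CCl4 and 1 lower, with a median of 0.26. The elastase Cela1 was at least 1.67-fold higher with CCl4, with no DEN array well above background (adjusted p = 0.00314), a call that ended on the shared slide. Cpa1, a pancreatic carboxypeptidase, lay at 1.0, 1.68 and -0.38 with DEN and was not well above background with CCl4, at least 34.2-fold lower with CCl4 (adjusted p = 1.1e-06). The summed acinar level was 1.22 to 3.65 with DEN, 0.464 to 0.512 with CCl4 and 0.606 to 0.745 in controls, and Prss1, Pnlip and Amy2a3 did not pass the filter on dim probes. Of 6 adipose markers tested, 3 were higher and 2 lower, and Adipoq did not pass the filter. The 2 lower became 1 without DEN replicate 3 or CCl4 replicate 1. Fabp4, shared by adipocytes, endothelium and macrophages, differed by 1.15 ± 0.31, a call that ended without DEN replicate 3, with spike-in scaling and on the shared slide. Of 9 erythroid and platelet markers, 3 were higher by limma, with 0 lower (0 at an unadjusted p under 0.05). Hbb, beta globin, differed by -0.18 ± 0.22 (adjusted p = 0.546). The summed level was 355 to 699 with CCl4 and 383 to 568 with DEN, both below the 944 to 1080 of controls. The part of such cells in the results was not tested.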

How the data were processed

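Liver RNA was labelled with Cy3 and hybridised to 1-colour Agilent arrays, and the authors read the scans with Feature Extraction (version 10.7.1.1 in the file headers). The deposited intensity is its processed signal, background-subtracted per the file headers. Here it was taken as log2 minus the 75th percentile of each array. The authors' deposited value table holds a linear ratio, the same signal divided by a constant per array 1.002 to 1.004 times that percentile, with column medians of 0.0852 to 0.0978. It served as an alternative.

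Probes were named through their accession in RefSeq gene tables (28206 of 61537 matched, to 15645 genes; 33331 stayed unnamed). Kept were 18449 probes well above background on all 3 arrays of CCl4 or of DEN, and the brightest named each of 10794 genes. 18 probes with an outlier flag were left out. limma 3.58.1 (R 4.3.3) fitted 6 group means to the 18 arrays, with Benjamini-Hochberg adjustment over all genes at 0.05, after a test on simulated data. For a gene with no array of a group well above background, "at least" gives the bright mean over the lowest signal well above background. The number of arrays limits the precision. Alternatives were another background correction, filter, scaling, slide block, pairing, probe rule, the groups compared alone and each array left out.

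Members, lists and rules were chosen with earlier results of these data known. Named by rule were the 12 largest differences each way between groups that do not overlap, per list up to 4 called members with the smallest adjusted p and the first 3 members, the 6 largest changes each way between the days, the 6 largest each way on opposite sides of the controls, and the genes the study followed up. Me1, Gpx2, Prdx1 and the other list members named beside these were chosen after their values were seen. Some list members are counted but not reported here by name.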

Additional observations from a re-analysis of the deposited data

Results flagged for a closer look

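The difference between CCl4 and DEN differed between day 84 and day 28, by the interaction term of the limma fit, for 2094 genes. The 6 largest upward changes (log2, day 84 minus day 28) were those of Ros1 (4.87), Sult2a1 (4.75), Meox1 (3.93), Plcxd3 (3.33), Ltc4s (3.20) and Slc1a2 (3.08). The 6 largest downward changes were those of Slc7a11 (-9.26), Pcp4 (-8.29), Dnaaf1 (-7.58), Ugt2b7 (-7.53), Defb1 (-7.14) and Trim54 (-7.14). Ros1, Meox1, Plcxd3, Pcp4, Dnaaf1 and Trim54 had a day 84 group with no array well above background, so for them these are fitted values and not bounds. The change of Ros1 lost its call without any of the 6 arrays of day 84 and without CCl4 replicate 1 or 3 of day 28, and was 3.02 without DEN replicate 2 of day 28.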

How the results depend on the processing

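Of 278 genes named by rule, 218 were called and 148 of these were called under every alternative run for the day 84 comparison. The number of genes called in that comparison (3751) was 2014 with slide as a block (1020 higher, 994 lower), 1682 on the arrays of 1 slide and 2772 to 3248 when an array was left out. It was 2579 with spike-in scaling, of which 34.2% were higher with CCl4 in place of 54.2%. With spike-in scaling the share called higher was 87.4% in place of 45.3% at day 28, 89.5% in place of 43.7% for CCl4 against controls, and 96.7% in place of 41.2% for DEN against controls. The count of changes between the days (2094) was 3728 with spike-in scaling, with 3.3% upwards in place of 53.2%, and 1191 to 2429 when an array was left out. Other counts with an array left out were 3749 to 5190 at day 28, 6312 to 6563 for CCl4 against controls and 4568 to 5457 for DEN against controls. Tpsab1 reversed to 1.66 with the mean of its probes. The cause of these shifts was not tested, apart from the arrays removed. Replicate numbers are shared by the groups. Deviations of same-numbered CCl4 and DEN arrays from their group means correlated at -0.02, -0.03 and -0.01 across genes. For differently numbered arrays the values were -0.01 to 0.029. With 3 arrays per group these values gave no sign of a pairing and cannot exclude one. With the replicate block 3682 genes were called, and 2036 changes between the days. Signal over background limits dim genes.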

Other observations

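Genes that write, read or erase DNA methylation, or supply its methyl groups, were tested as a list. Of 17, 3 were lower with CCl4 by limma, with 0 higher (2 at an unadjusted p under 0.05). Among all genes tested, 15.9% were lower and 18.8% higher, so the share of members lower was near that of all genes. Mat2a, which makes the methyl donor S-adenosylmethionine outside the normal adult hepatocyte, lay at -1.21, -1.30 and -1.14 with DEN and -2.01, -1.71 and -1.87 with CCl4, without overlap (-0.65 ± 0.12, adjusted p = 0.00113). The deacetylase Hdac2 differed by -0.50 ± 0.11. Ahcy, which clears the product of methyl transfer, differed by -0.50 ± 0.17, and lost its call without DEN replicate 1 or 3 or CCl4 replicate 1 or 3, without the filter on dim probes, with slide as a block or random block and on the shared slide. The maintenance methyltransferase Dnmt1 differed by 0.45 ± 0.19 (adjusted p = 0.0856). It was called higher with CCl4 without CCl4 replicate 1 (adjusted p = 0.0401) and with the mean of its probes (adjusted p = 0.0119). Dnmt3b, Tet1, Tet2 and Uhrf1 were not tested. The connexin gene Gjb2 was lower with CCl4 (-0.76 ± 0.12, adjusted p = 0.000273), at 5.60, 5.95 and 5.59 with DEN and 5.05, 5.03 and 4.76 with CCl4.

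The 3 DEN arrays of day 84 differed among themselves in the same order over several lists. Replicate 2 was the highest of the 3 for 26 of 27 mitosis genes and 21 of 24 NRF2 genes. It was the lowest for 25 of 29 hepatocyte secretory and identity genes, 17 of 20 pericentral markers and 17 of 17 male-predominant genes. Replicate 3 was the opposite, lowest for 27 mitosis genes and 22 NRF2 genes, and highest for 21, 18 and 16 of the others. All 3 lay on the same slide, and the source of this spread was not tested.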
